A study of Mus musculus with 14 samples.

Results

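Semaphorins, plexins, neuropilins, ephrins and Eph receptors are the families through which neighbouring cells attract or repel one another. They were followed through the differentiation of C2C12, a mouse line of skeletal muscle myoblasts. The members were the protein-coding genes whose symbol begins with Sema3 to Sema7 or Plxn, or names a neuropilin (Nrp1, Nrp2), an Eph receptor (Epha, Ephb) or an ephrin (Efna, Efnb). This gave 53 of the 49671 genes in the table, among them 7 secreted class 3 semaphorins, 13 membrane-bound semaphorins, 9 plexins, 2 neuropilins, 5 A ephrins, 3 B ephrins, 9 EphA and 5 EphB receptors. RNA sequencing covered 14 libraries in 7 groups of 2. Growing cells (day 0) were kept in DMEM with 20% fetal calf serum (FCS). DM1 was DMEM with 2% horse serum, the usual medium for muscle differentiation. DM2 was DMEM with 10% FCS and a cocktail used to make fat cells, of 1 µg/ml insulin, 0.5 mM 3-isobutyl-1-methylxanthine (IBMX, a phosphodiesterase inhibitor), 0.5 µM dexamethasone (a glucocorticoid) and 2 µM rosiglitazone (a PPAR-gamma agonist). DM3 joined the 2% horse serum of DM1 to the same cocktail as in DM2. Each medium was sampled at day 2 and day 7. All groups are of 1 immortalized line, and nothing in the labels says that replicates were separate cultures, so p-values rest on library-to-library spread alone, and that spread may be technical.

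Semaphorins are ligands that share a sema domain. Class 3 semaphorins are secreted, and most of them bind a neuropilin, which has little signalling of its own and passes the signal to an A plexin, while Sema3e can bind Plxnd1 directly. Semaphorins of classes 4 to 6 span the membrane, and Sema7a is held to it by a lipid anchor and can signal through Plxnc1 and integrins. Plexins act on small GTPases and the actin cytoskeleton. Eph receptors are tyrosine kinases that bind ephrins on a touching cell, EphA mainly the lipid-anchored A ephrins and EphB mainly the transmembrane B ephrins, and the ephrin-bearing cell can be signalled to in turn. In skeletal muscle these families are known from motor axon guidance and from the movement of muscle precursor cells, and Sema3a is known as a signal from muscle precursor cells towards motor nerve endings.

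Libraries held 21907617 to 29784885 expected counts. Levels are CPM, counts relative to the TMM-scaled library size, given for both libraries of a group or as mean ± SD (n = 2). Differences are log2 fold changes ± standard error (SE), and calls were made with edgeR's quasi-likelihood test over 15973 genes, at a Benjamini-Hochberg adjusted p below 0.05. Of 10 myoblast and myotube markers, 9 were found, and all 9 reached 1 CPM in DM1 at both days, in DM2 at day 7 and in DM3 at both days. Myogenin (Myog) stood at 1.81 CPM at day 0, and at 47.2 in DM1, 32.1 in DM2 and 1052 in DM3 at day 7. Myod1 went from 137 CPM at day 0 to 33.1, 18.3 and 68.8 in these groups, and Des from 863 to 1149, 469 and 2047. The summed markers held 1545 and 1338 CPM in the day 0 libraries. At day 7 they held 2482 and 2166 CPM in DM1, 1244 and 1351 in DM2 and 20817 and 19890 in DM3. Among 8 adipocyte markers no more than 2 reached 1 CPM in any group, and Adipoq was at 0 in 5 of the 7 groups and at 0.247 CPM at most. Fabp4 stood at 0.415 CPM at day 0 and 4.31 in DM2 at day 2. At day 7 Fabp4 stood at 2.68 CPM in DM1, 6.74 in DM2 and 0.934 in DM3. Pparg went from 23.2 CPM at day 0 to 19.3 in DM1, 11.0 in DM2 and 12.4 in DM3 at day 7. Endothelial, leukocyte and glial lists summed to at most 7.00 CPM per library. The neuron list summed to 6.73 to 205 CPM, nearly all from Stmn2 (196 CPM at day 0 and 6.15 in DM3 at day 7), with Snap25 at 0 in 6 groups, and its part in the results below was not tested. DM3 replicate 2 of day 2 stood apart: 4.17% of its values were not whole against 9.66 to 10.5% elsewhere, and processed pseudogenes took 0.584% of its counts against 2.34% in replicate 1. That library had 17750 genes with at least 1 count against 20067 in replicate 1, and 84360 counts of Gapdh against 11060. The rank correlation of the 2 replicates was 0.9616 in this group and 0.9875 to 0.9954 in the others. Day 0 replicate 1 (1.28 against 2.51%) and DM1 replicate 1 of day 2 (1.29 against 2.14%) also had a low pseudogene share. Their Gapdh counts were high too, 75600 against 16040 at day 0 and 31840 against 10320 in DM1. The cause was not tested. Counts at day 2 in DM3 are also given without replicate 2.

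Of the 53 members 45 passed the filter on low counts. Epha5 and Epha6 had no count in any library, and Epha8, Epha10, Ephb1, Sema5b, Sema4d and Plxnc1 had 1 to 27 counts over all 14 libraries. Plxnc1, the plexin through which Sema7a is known to signal, had 27 counts in all. In 43 members the mean reached 1 CPM in at least 1 group, and Plxnb3 and Epha3 were tested at lower levels, 0 to 0.63 and 0 to 0.584 CPM per library. Per kb of exon, the scale on which genes can be compared, the highest level over all libraries was that of Plxnb2 (61.1 CPM per kb), a receptor of Sema4 ligands. Plxna1 (33.6), Plxnd1 (22.6), the ephrin Efnb2 (20.8) and the receptor Epha2 (18.1) followed. The most abundant semaphorins per kb over all libraries were Sema7a (15.8), Sema6a (15.3), Sema4c (14.5) and Sema3c (13.98). Sema7a stood at 32.0 CPM per kb at day 0 and 50.6 in DM1 at day 2. In the other groups it was at 3.20 to 9.61, below Sema6a in each. Together the members took 0.162 to 0.341% of a library's counts, most in DM1 at day 2 and least in DM2 and DM3 at day 7.

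**Figure D1:**
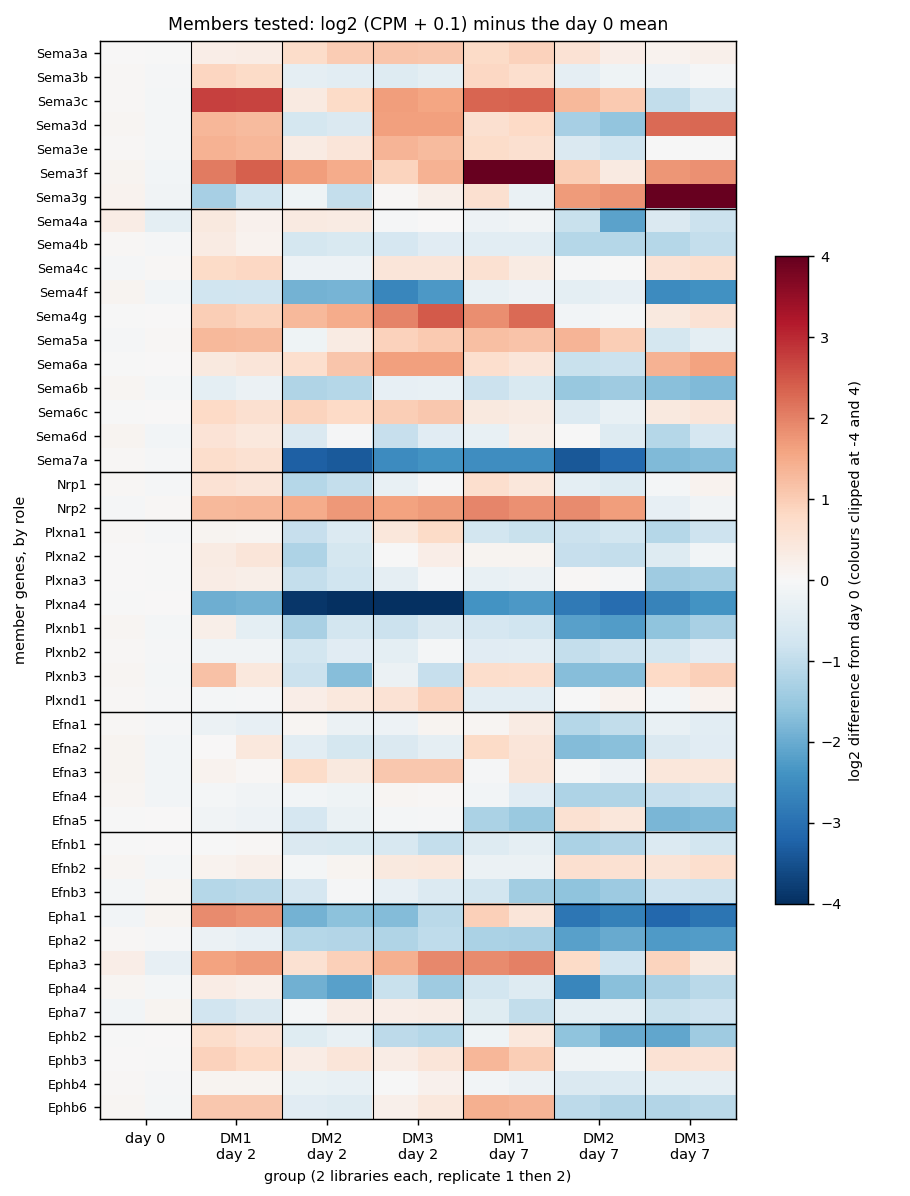
Members that passed the filter (rows, grouped by role) in the 14 libraries (columns, 2 per group); colour is log2 (CPM + 0.1) minus the day 0 mean, clipped at -4 and 4. Sema3g reaches the red end of the scale in DM3 at day 7 and Sema3f in DM1 at day 7, while Plxna4 is blue in every differentiation medium.

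All 45 tested members differed somewhere among the 7 groups, as did 81.7% of all genes tested, so this count says little about the members. Direction separated the media more. In bulk RNA a smaller share of cells that express a gene and less RNA per cell cannot be told apart. In DM1 at day 2, 17 of 45 members rose over day 0 (background 15.2%) and 6 fell (14.6%). Their median log2 fold change was 0.27, against 0.00 over all genes tested. Without the 3 libraries of low pseudogene share, 13 rose and 2 fell, and with any of the 4 libraries of this comparison left out 2 to 3 fell. By day 7 in DM1, 18 were higher (27.7%) and 15 lower (25.8%) than at day 0, and 16 and 9 without day 0 replicate 1. In DM2 more members fell than rose: 19 fell and 11 rose at day 2 (background 26.2 and 23.5%), and 28 fell and 8 rose at day 7 (30.9 and 24.5%), with a median of -0.69. Without DM2 replicate 1 of day 7, 26 fell and 5 rose. Under library totals alone 31 fell and 5 rose at day 7 in DM2, where that scaling moved the median of all genes from -0.03 to -0.26. DM3 had more rises at day 2 and more falls at day 7: 18 rose and 11 fell at day 2 (25.5 and 25.4%), and 8 rose and 24 fell at day 7 (28.9 and 30.1%). Without DM3 replicate 2 of day 2, 15 rose and 14 fell at day 2 in DM3. In either direction, 23, 30 and 29 of 45 members were called at day 2 in DM1, DM2 and DM3 (background 29.7, 49.7 and 50.9%), and 33, 36 and 32 at day 7 (53.5, 55.4 and 59%). These 6 comparisons share the day 0 libraries.

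In horse serum with the cocktail (DM3) more members were lower than higher against horse serum alone (DM1). At day 2, 20 were lower and 11 higher (background 19.4 and 17.6%), and at day 7, 24 were lower and 6 higher (25.1 and 22.7%). The day 2 counts were 18 and 7 without DM3 replicate 2, and also 18 and 7 without DM1 replicate 2. With the cocktail in both media, 2% horse serum in place of 10% FCS (DM3 against DM2) went with higher levels: 17 higher and 1 lower at day 2 (9.98 and 6.31%), 19 and 7 at day 7 (27.5 and 25.2%). At day 2 the first pair was 13 and 1 without DM3 replicate 2, and 8 were higher with only these groups fitted. Kind and amount of serum changed together in this comparison. In either direction, DM3 and DM1 differed in 31 members at day 2 and 30 at day 7 (background 37 and 47.7%), and DM3 and DM2 in 18 and 26 (16.3 and 52.7%). The size of the DM3 to DM1 difference itself changed between the days in 24 members (34.9%), 8 upward (16.3%) and 16 downward (18.7%), and that of DM3 to DM2 in 23 (39.8%), 10 upward (20%) and 13 downward (19.8%). Without the 3 libraries of low pseudogene share the first of these counts was 15, and without DM1 replicate 2 of day 2 4 went upward and 13 downward. From day 2 to day 7 members fell more often than they rose in each medium, 17 against 8 in DM1 (background 17.5 and 16.8%), 24 against 9 in DM2 (29.4 and 25.4%) and 22 against 7 in DM3 (25.3 and 22.6%). In either direction 25, 33 and 29 members changed between the days in DM1, DM2 and DM3 (34.3, 54.8 and 47.9%). Without DM1 replicate 1 of day 2 the DM1 counts were 11 and 4. Without DM3 replicate 2 of day 2 the DM3 counts were 20 and 6. They were 23 and 4 without DM3 replicate 2 of day 7, and 26 and 4 under library totals alone.

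**Figure D2:**
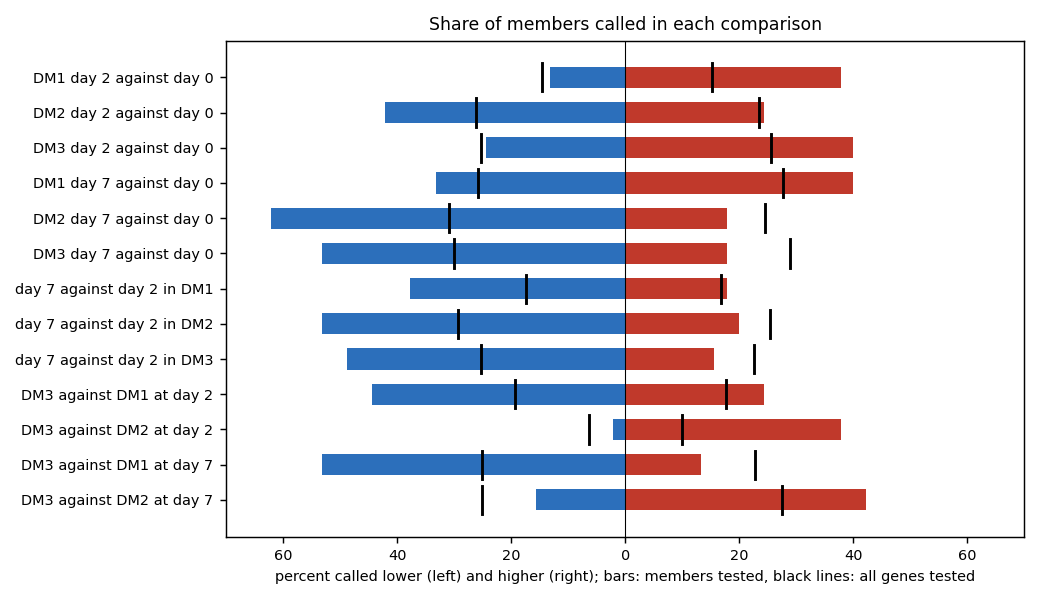
Percent of the 45 tested members called lower (blue, left) and higher (red, right) in each comparison, with black lines for the same share over all 15973 genes tested. The red bar of DM3 against DM2 at day 2 reaches 37.8% against a line at 9.98%, and the blue bar of DM2 at day 7 reaches 62.2% against 30.9%. The first of these bars stands for 17 members in the full model, and 8 were higher with only those groups fitted.

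Among members that reached 1 CPM in a group, the 3 with the largest ratio of highest to lowest group mean were Sema3g (94.6), Epha1 (31.6) and Plxna4 (30.4), and Sema7a (15.8) had the largest among the membrane-bound semaphorins. The RefSeq promoter windows (GRCm38.p6, from upstream of the gene's start to just after it) of Sema3g, Sema7a and Epha1 are shown because their RNA had the largest such ratios among those of these members with an entry. Capitals mark matches, on either strand, to CAGCTG (the E-box form preferred by MyoD and myogenin), AGAACA (a short form of the glucocorticoid receptor site) or TGACG (the core of a cAMP response element), which share no overlap here.
Sema3g promoter, chr14:31217623-31217922, plus strand: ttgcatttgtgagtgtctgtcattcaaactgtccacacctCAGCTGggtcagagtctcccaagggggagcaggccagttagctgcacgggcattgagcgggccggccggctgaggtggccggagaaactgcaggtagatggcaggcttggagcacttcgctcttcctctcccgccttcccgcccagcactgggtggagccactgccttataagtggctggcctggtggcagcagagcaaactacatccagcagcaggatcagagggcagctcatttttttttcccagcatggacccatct
Sema7a promoter, chr9:57939862-57940161, plus strand: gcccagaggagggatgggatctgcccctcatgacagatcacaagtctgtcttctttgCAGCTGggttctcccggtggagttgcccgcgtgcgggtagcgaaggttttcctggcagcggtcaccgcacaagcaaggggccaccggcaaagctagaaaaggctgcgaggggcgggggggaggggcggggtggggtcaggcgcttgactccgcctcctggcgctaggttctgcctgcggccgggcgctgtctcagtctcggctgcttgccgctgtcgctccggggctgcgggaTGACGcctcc
Epha1 promoter, chr6:42373219-42373518, minus strand: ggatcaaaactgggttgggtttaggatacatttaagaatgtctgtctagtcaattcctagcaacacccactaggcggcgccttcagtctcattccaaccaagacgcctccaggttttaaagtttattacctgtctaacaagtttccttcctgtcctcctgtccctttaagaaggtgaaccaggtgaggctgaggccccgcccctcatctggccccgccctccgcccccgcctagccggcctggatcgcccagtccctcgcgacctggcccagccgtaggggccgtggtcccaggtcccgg
The Sema3g window held 1 E-box of this form, the Sema7a window 1 such E-box and 1 TGACG, and the Epha1 window none of the 3 motifs. Of the 61 windows of 47 members, 9 held CAGCTG (14.8%, against 16.3% of 32851 windows of all genes). For AGAACA the shares were 13.1% and 19.0%, and for TGACG 14.8% and 20.8%. A match describes these letters only.

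Of the 7 secreted class 3 semaphorins, 6 rose in DM1 by day 7, 4 in DM2 and 3 in DM3 (background 27.7, 24.5 and 28.9%), while 3 fell in DM2 and 1 in DM3 (30.9 and 30.1%). Sema3g (ENSMUSG00000021904, chromosome 14, 31217860 to 31230352) was read at 0.523 and 0.409 CPM in growth medium, 0.126 and 0.225 in DM1, 0.401 and 0.191 in DM2 and 0.484 and 0.573 in DM3 at day 2. At day 7 it stood at 0.784 and 0.376 CPM in DM1, 1.73 and 1.87 in DM2 and 16.8 and 16.4 in DM3. Both DM3 libraries of day 7 lay far above all others, 35.3-fold over day 0 (log2 5.14 ± 0.37, adjusted p = 1.55e-07). The day 7 gap between DM3 and DM2 was 9.21-fold (adjusted p = 5.25e-06), with DM2 itself 3.83-fold above day 0 (adjusted p = 0.00055). DM3 was 28.1-fold above DM1 at day 7 (adjusted p = 6.47e-07), and 43.7-fold without DM1 replicate 1.

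Sema3f (ENSMUSG00000034684, chromosome 9, 107681500 to 107710475), a ligand that prefers the neuropilin Nrp2, had its peak in the other horse serum medium. Its levels were 0.768 and 0.647 CPM in growth medium, 3.27 and 4.16 in DM1, 2.48 and 2.14 in DM2 and 1.41 and 2.00 in DM3 at day 2. At day 7 they were 14.3 and 15.0 CPM in DM1, 1.51 and 0.934 in DM2 and 2.66 and 2.79 in DM3. Both DM1 libraries of day 7 were above every other library, 20.6-fold over day 0 (log2 4.36 ± 0.27, adjusted p = 7.71e-08) and 3.93-fold over DM1 at day 2 (adjusted p = 5.26e-05). DM3 was 5.36-fold below DM1 at day 7 (adjusted p = 6.81e-06), and 3.84-fold above day 0 (adjusted p = 4.34e-05). In DM2 and DM3 at day 2 and in DM3 at day 7 all 6 libraries lay between 1.41 and 2.79 CPM.

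Sema3c (ENSMUSG00000028780, chromosome 5, 17574281 to 17730268), known from heart outflow and nerve development, was high in horse serum without the cocktail at both days. It was read at 36.3 and 33.3 CPM in growth medium, 233 and 225 in DM1, 44.4 and 59.7 in DM2 and 111 and 105 in DM3 at day 2, and at day 7 at 174 and 178 CPM in DM1, 86.5 and 71.9 in DM2 and 17.5 and 22.5 in DM3. The 4 DM1 libraries did not overlap with any others. The rise over day 0 in DM1 was 6.58-fold at day 2 (log2 2.72 ± 0.15, adjusted p = 3.85e-07) and 5.06-fold at day 7 (adjusted p = 1.31e-07). In DM3 the gene first rose and then fell, 5.37-fold from day 2 to day 7 (adjusted p = 2.17e-07), to end 1.74-fold below day 0 (adjusted p = 0.000583). The day 7 difference between DM3 and DM1 was log2 -3.14 ± 0.16, and that at day 2 was log2 -1.09 ± 0.14. In DM2, Sema3c was 2.28-fold above day 0 at day 7 (adjusted p = 2.66e-05).

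Sema3d (ENSMUSG00000040254, chromosome 5, 12383385 to 12588948), another secreted guidance cue, was highest in DM3 and lowest in DM2. Its libraries held 25.6 and 23.0 CPM in growth medium, 60.8 and 58.4 in DM1, 15.0 and 16.4 in DM2 and 76.7 and 75.8 in DM3 at day 2. At day 7 they held 38.1 and 42.5 CPM in DM1, 9.71 and 8.05 in DM2 and 116 and 119.6 in DM3. The order of group means was DM3 at day 7, DM3 at day 2, DM1 at day 2, DM1 at day 7, day 0, DM2 at day 2 and DM2 at day 7, with no overlap of libraries between neighbours in that order. DM3 stood 4.86-fold above DM2 at day 2 (adjusted p = 8.85e-08) and 13.3-fold at day 7 (adjusted p = 2.61e-10). Against day 0, Sema3d rose 4.85-fold in DM3 and fell 2.73-fold in DM2 by day 7 (adjusted p = 2.29e-09 and 2.12e-07).

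Sema3a, Sema3b and Sema3e moved less, with ratios of highest to lowest group mean of 2.13, 2.41 and 4.19. Sema3a, the growth cone collapse factor that signals through Nrp1, rose in DM3 at day 2 to 178 ± 3.67 CPM from 83.8 ± 1.74 CPM at day 0 (log2 1.09 ± 0.11) and fell again by day 7 (log2 -0.92 ± 0.11), to 94.1 ± 3.67 CPM. In DM1 it was higher at day 7, at 151 ± 12.01 CPM (log2 0.85 ± 0.11). Sema3b was higher in DM1 than in DM3 at both days, 97.8 ± 4.66 CPM against 40.6 ± 2.35 CPM at day 2 (adjusted p = 1.64e-06) and 92.8 ± 6.69 CPM against 50.5 ± 4.27 CPM at day 7 (adjusted p = 1.47e-05). Sema3e, the Plxnd1 ligand, rose by day 2 in the horse serum media, to 122 ± 3.80 CPM in DM1 and 117 ± 5.13 CPM in DM3 from 46.9 ± 2.84 CPM. At day 7 it was highest in DM1 (76.3 ± 3.52 CPM) and lowest in DM2 (29.1 ± 3.30 CPM). Without DM3 replicate 2 the day 2 differences between DM3 and day 0 were log2 1.11 for Sema3a, 1.67 for Sema3c, 1.66 for Sema3d and 1.37 for Sema3e, against 1.09, 1.63, 1.65 and 1.32 with it.

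**Figure D3:**
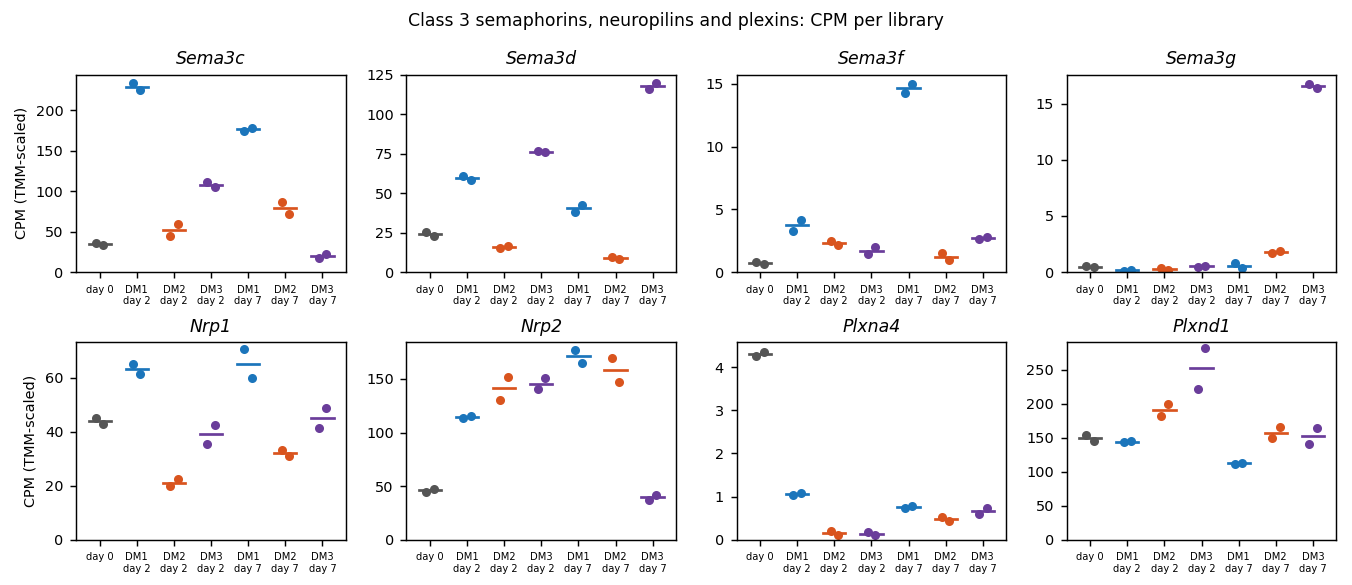
CPM (linear, from 0) of 4 class 3 semaphorins, both neuropilins and 2 plexins; each point is a library and each bar the mean of 2. Sema3g in DM3 at day 7 sits at 16.8 and 16.4, Sema3f in DM1 at day 7 at 14.3 and 15.0, and Nrp2 in DM3 at day 7 is back at 36.9 and 42.2, near day 0.

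Of the neuropilins, the binding partners of most class 3 semaphorins, Nrp2 rose and Nrp1 fell in DM2 at both days, and neither passed the test against day 0 in DM3 at day 7. Nrp2 (ENSMUSG00000025969, chromosome 1, 62703285 to 62818695) rose in each medium by day 2 and stayed high at day 7 except in DM3. Its values were 44.5 and 47.6 CPM in growth medium, 114 and 116 in DM1, 130.3 and 152 in DM2 and 140.2 and 150.4 in DM3 at day 2, then 177 and 165 CPM in DM1, 169.6 and 147 in DM2 and 36.9 and 42.2 in DM3 at day 7. Against day 0 the rise at day 7 was 3.71-fold in DM1 and 3.44-fold in DM2 (adjusted p = 2.95e-08 and 4.12e-08). In DM3 it fell 3.67-fold from day 2 to day 7 (log2 -1.88 ± 0.11, adjusted p = 6.44e-08), and its day 7 difference from day 0 did not pass (log2 -0.22 ± 0.10). That difference passed under library totals alone (log2 -0.43) and with only the groups compared (log2 -0.26). Nrp1 (ENSMUSG00000025810, chromosome 8, 128358604 to 128503363), which also binds VEGF, was read at 44.9 and 42.9 CPM in growth medium, 65.2 and 61.5 in DM1, 19.8 and 22.6 in DM2 and 35.5 and 42.5 in DM3 at day 2, and at 70.6 and 59.9 CPM in DM1, 33.2 and 30.9 in DM2 and 41.5 and 48.7 in DM3 at day 7. DM2 was low at both days, 2.07-fold under day 0 at day 2 (adjusted p = 2.01e-05). DM1 was 1.49-fold over day 0 at day 7 (adjusted p = 0.00143), and in DM3 neither day passed (log2 -0.17 ± 0.12 at day 2 and log2 0.04 ± 0.12 at day 7). Vegfa, another ligand of Nrp1, stood at 203 CPM at day 0, 186 in DM1, 336 in DM2 and 182 in DM3 at day 7.

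Of the 8 tested plexins, the signalling receptors, 6 fell in DM1 by day 7, 6 in DM2 and 5 in DM3 (background 25.8, 30.9 and 30.1%). Plxna4 (ENSMUSG00000029765, chromosome 6, 32144268 to 32588192), a receptor of Sema3a with neuropilins and of Sema6 ligands, fell in each medium. It was read at 4.26 and 4.36 CPM in growth medium, 1.05 and 1.09 in DM1, 0.2 and 0.115 in DM2 and 0.176 and 0.107 in DM3 at day 2. Day 7 gave 0.748 and 0.793 CPM in DM1, 0.527 and 0.428 in DM2 and 0.592 and 0.739 in DM3. The day 0 libraries were above all others, and DM2 and DM3 at day 2 were the lowest. The falls from day 0 were 4.02-fold in DM1, 26.7-fold in DM2 and 29.9-fold in DM3 at day 2 (adjusted p = 0.000403, 9.62e-07 and 5.61e-07), and 5.57-fold, 8.94-fold and 6.43-fold at day 7. The lowest library held 3 counts of Plxna4, so the day 2 folds in DM2 and DM3 rest on few counts. Without DM3 replicate 2 the day 2 fall in DM3 was 23.8-fold.

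Plxna1 (ENSMUSG00000030084, chromosome 6, 89316314 to 89362620), the main A plexin here, was read at 373 and 356 CPM in growth medium, 392.4 and 385 in DM1, 193 and 247 in DM2 and 497 and 616 in DM3 at day 2, and at 217 and 196 CPM in DM1, 203 and 218 in DM2 and 164 and 205 in DM3 at day 7. It was 2.53-fold higher in DM3 than in DM2 at day 2 (log2 1.34 ± 0.14, adjusted p = 7.17e-05; log2 1.18 without DM3 replicate 2). Its fall from day 2 to day 7 in DM3 was 3.02-fold (adjusted p = 3.03e-06), and at day 7 the 3 media overlapped. Plxna3, which with Nrp2 forms a receptor of Sema3f, held 44.8 and 44.3 CPM in growth medium, 54.9 and 52.5 in DM1, 22.8 and 25.6 in DM2 and 34.9 and 43.1 in DM3 at day 2, then 36.5 and 38.1 CPM in DM1, 46.3 and 43.1 in DM2 and 16.6 and 17.3 in DM3 at day 7. DM3 at day 7 had the lowest values, 2.62-fold under day 0 (adjusted p = 2.13e-07) and 2.63-fold under DM2 (adjusted p = 3.21e-07). Plxnb1, a receptor of Sema4d, had 13.0 and 11.8 CPM in growth medium, 14.7 and 9.49 in DM1, 4.93 and 7.44 in DM2 and 6.83 and 8.20 in DM3 at day 2, and at day 7 7.70 and 7.14 CPM in DM1, 2.67 and 2.53 in DM2 and 3.97 and 4.93 in DM3. It fell 4.75-fold in DM2 and 2.78-fold in DM3 by day 7 (adjusted p = 6.31e-06 and 0.000138), while its ligand Sema4d was at 0 to 0.195 CPM. Plxnd1, the Sema3e receptor, was highest in DM3 at day 2 (252 ± 42.0 CPM, log2 0.75 ± 0.12 over day 0, 0.57 without replicate 2) and ranged from 112 to 190.2 CPM as a mean elsewhere. Plxnb3 was 1 of the 6 plexins that fell in DM2 by day 7. It was listed at 0 in both DM2 libraries of day 7, against 0.244 and 0.204 CPM in growth medium. Both day 7 libraries of DM3 held it, at 0.465 and 0.534 CPM. Plxnb2 ranged from 329 CPM in DM2 at day 7 to 614 at day 0, and Plxna2 from 31.7 in DM2 at day 2 to 81.2 in DM1 at day 2.

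Of the 11 tested membrane-bound semaphorins, 6 rose and 1 fell in DM1 at day 2 (background 15.2 and 14.6%), 3 rose and 4 fell in DM2 (23.5 and 26.2%) and 5 rose and 3 fell in DM3 (25.5 and 25.4%). At day 7, 5 rose and 3 fell in DM1 (27.7 and 25.8%), 1 rose and 7 fell in DM2 (24.5 and 30.9%) and 3 rose and 6 fell in DM3 (28.9 and 30.1%). Sema7a (ENSMUSG00000038264, chromosome 9, 57940112 to 57962865) had the widest range. Its libraries held 109 and 102 CPM in growth medium, 172 and 162 in DM1, 10.8 and 10.3 in DM2 and 18.5 and 20.2 in DM3 at day 2, and at day 7 18.6 and 18.6 CPM in DM1, 9.86 and 12.3 in DM2 and 30.7 and 32.6 in DM3. At day 2 it was up in DM1 (log2 0.66 ± 0.10, adjusted p = 0.000306) but down in both cocktail media, 10.00-fold in DM2 and 5.44-fold in DM3 (adjusted p = 1.62e-09 and 5.43e-09; log2 -2.51 for DM3 without replicate 2). By day 7 it had fallen in DM1 too, 8.97-fold from day 2 (log2 -3.16 ± 0.11, adjusted p = 2.74e-09). DM3 then had the highest day 7 values, log2 0.77 ± 0.10 over DM1, so the sign of the DM3 to DM1 difference turned between the days.

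Sema4f (ENSMUSG00000000627, chromosome 6, 82911885 to 82939769), a transmembrane semaphorin best known in the nervous system, was lowest in DM3. It was read at 16.2 and 14 CPM in growth medium, 8.65 and 8.93 in DM1, 4.01 and 4.12 in DM2 and 2.38 and 3.01 in DM3 at day 2, then at 12.3 and 13.1 CPM in DM1, 11.5 and 11.9 in DM2 and 2.54 and 2.71 in DM3 at day 7. The 4 DM3 libraries lay below all others, 5.59-fold under day 0 at day 2 and 5.75-fold at day 7 (adjusted p = 4.84e-08 and 1.54e-08). In DM2 it fell 3.71-fold by day 2 and rose 2.88-fold from there to day 7 (adjusted p = 4.94e-07 and 1.77e-06).

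Sema6a (ENSMUSG00000019647, chromosome 18, 47235598 to 47368870), a ligand of Plxna2 and Plxna4, followed another course, high in DM3 at both days. Its values were 76.3 and 77.1 CPM in growth medium, 101 and 108 in DM1, 122 and 165 in DM2 and 238 and 239 in DM3 at day 2, and 123 and 107 CPM in DM1, 41.5 and 42.2 in DM2 and 203 and 232 in DM3 at day 7. The 4 DM3 libraries were above all others, and both DM2 libraries of day 7 below all others. DM3 was 3.11-fold above day 0 at day 2 and 2.83-fold at day 7 (adjusted p = 5.79e-07 and 6.25e-07), and 5.20-fold above DM2 at day 7 (adjusted p = 2.42e-08). Sema4g, a class 4 member of low level, was read at 1.61 and 1.64 CPM in growth medium, 3.32 and 3.11 in DM1, 4.09 and 4.70 in DM2 and 6.65 and 9.42 in DM3 at day 2, and at 6.16 and 8.22 CPM in DM1, 1.51 and 1.52 in DM2 and 2.16 and 2.46 in DM3 at day 7. It peaked in DM3 at day 2 (log2 2.31 ± 0.22, adjusted p = 2.91e-06; log2 2.03 without replicate 2) and in DM1 at day 7 (log2 2.15 ± 0.22, adjusted p = 4.73e-06). At day 7 its DM3 level was 3.11-fold under DM1 (adjusted p = 5.37e-05).

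The other membrane-bound semaphorins changed less. Sema5a, which carries thrombospondin repeats, was 66.8 ± 3.48 CPM at day 0 and rose in DM1 to 162 ± 2.35 CPM at day 2 (log2 1.28 ± 0.16). At day 7 it was high in DM1 (151 ± 3.66 CPM) and DM2 (153 ± 27.7 CPM) and low in DM3 (45.8 ± 6.87 CPM), 3.29-fold under DM1 (adjusted p = 7.39e-06). Sema4c, a Plxnb2 ligand described in muscle differentiation, rose in the horse serum media: log2 0.80 ± 0.091 in DM1 and log2 0.48 ± 0.091 in DM3 at day 2, and log2 0.47 ± 0.091 and log2 0.62 ± 0.091 at day 7. In DM2 it did not pass at either day (log2 -0.20 ± 0.091 and log2 -0.03 ± 0.091), though the day 7 difference passed under library totals alone (log2 -0.26). DM3 exceeded DM2 in Sema4c at day 2 (log2 0.68 ± 0.091) and day 7 (log2 0.65 ± 0.091). Sema4b fell in all 3 media by day 7, most in DM2 (log2 -1.14 ± 0.10), and Sema6b did so as well, most in DM3 (log2 -1.77 ± 0.18). Sema6c rose in each medium at day 2, by 1.66-fold, 1.81-fold and 2.04-fold in DM1, DM2 and DM3. Sema6d and Sema4a were low, with group means of 2.24 to 6.04 and 0.398 to 1.54 CPM.

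**Figure D4:**
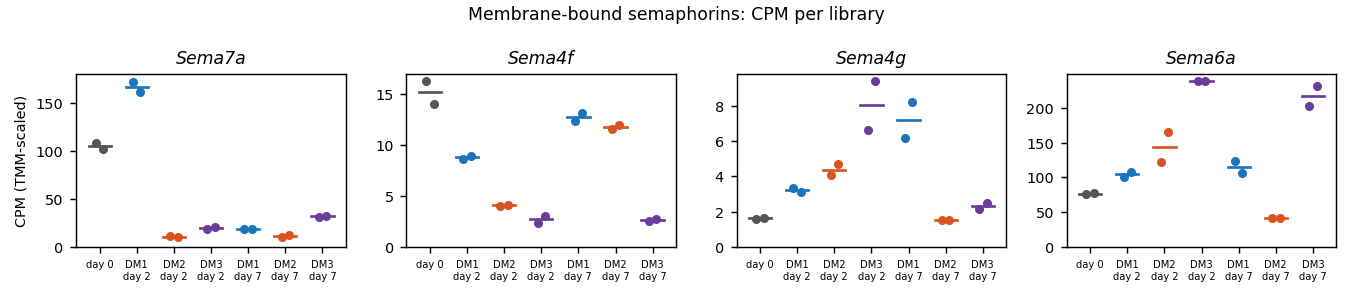
CPM (linear, from 0) of 4 membrane-bound semaphorins in each library (points) with group means (bars). Sema7a is at 172 and 162 in DM1 at day 2 and between 9.86 and 32.6 in all cocktail and all day 7 libraries, and Sema6a is highest in the 4 DM3 libraries.

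Of the 5 tested EphA receptors, 3 fell in DM2 and 4 in DM3 by day 7 (background 30.9 and 30.1%), and in DM1 2 rose and 2 fell (27.7 and 25.8%). Of those that rose in DM1, Epha3 stayed below 1 CPM, at 0.105 and 0.0341 in growth medium and 0.534 and 0.584 at day 7. Epha1 (ENSMUSG00000029859, chromosome 6, 42358487 to 42373268) was read at 8.03 and 9.30 CPM in growth medium, 32.1 and 30.1 in DM1, 2.28 and 2.71 in DM2 and 2.55 and 4.01 in DM3 at day 2, then at 16.9 and 12.3 CPM in DM1, 1.08 and 1.24 in DM2 and 0.902 and 1.07 in DM3 at day 7. The 4 DM1 libraries were above all others, and all 8 cocktail libraries below day 0. It rose 3.59-fold in DM1 at day 2 (log2 1.84 ± 0.21, adjusted p = 4.78e-05) and fell 3.46-fold in DM2 and 2.63-fold in DM3 at day 2 (adjusted p = 2.94e-05 and 0.000159; log2 -1.76 for DM3 without replicate 2). By day 7 DM3 was 8.82-fold under day 0 and 14.8-fold under DM1 (adjusted p = 2.55e-07 and 1.32e-07). Exons of Epha1 overlap those of Zyx on the opposite strand, and whether counting used strand is not given in the sources used here. Zyx stood at 632 CPM at day 0, 963 in DM1 at day 2 and 666 in DM3 at day 7.

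Epha2 (ENSMUSG00000006445, chromosome 4, 141301240 to 141329384), the most abundant Eph receptor per kb over all libraries, fell in each medium. At day 7 it was exceeded per kb by Ephb6 in DM1 (16.1 against 14.4 CPM per kb). In DM2 and DM3 it was then exceeded by Ephb4 (9.40 against 8.26 and 10.6 against 7.39). It held 172 and 158 CPM in growth medium, 141 and 133 in DM1, 74.6 and 73.9 in DM2 and 71.4 and 81.7 in DM3 at day 2, and 68.4 and 66.6 CPM in DM1, 36.3 and 40.9 in DM2 and 33.9 and 35.2 in DM3 at day 7. From day 2 to day 7 it fell by log2 1.02 in DM1, 0.94 in DM2 and 1.15 in DM3, to 4.78-fold under day 0 in DM3 (adjusted p = 9.71e-10). Epha4, which binds A and B ephrins, was read at 4.19 and 3.71 CPM in growth medium, 4.91 and 4.61 in DM1, 0.962 and 0.802 in DM2 and 2.07 and 1.40 in DM3 at day 2, then at 2.35 and 2.75 CPM in DM1, 0.565 and 1.17 in DM2 and 1.56 and 1.81 in DM3 at day 7. Day 0 and DM1 at day 2 were the highest groups, and DM2 at day 2 was 4.46-fold under day 0 (adjusted p = 0.00015). Epha7 had 14.8 and 17.3 CPM in growth medium, 9.45 and 10.7 in DM1, 15.1 and 19.8 in DM2 and 19.3 and 19.8 in DM3 at day 2, and 11.4 and 8.10 CPM in DM1, 12.3 and 12.1 in DM2 and 8.58 and 8.91 in DM3 at day 7. It was 1.94-fold higher in DM3 than in DM1 at day 2 (adjusted p = 0.000819), fell 2.23-fold in DM3 from there to day 7 (adjusted p = 0.000139), and was below day 0 at day 7 in DM1 (log2 -0.72 ± 0.17) and DM3 (log2 -0.88 ± 0.17).

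Of the 4 tested EphB receptors, 3 were lower in DM3 than in DM1 at day 2 and 4 at day 7 (background 19.4 and 25.1%). Ephb6 (ENSMUSG00000029869, chromosome 6, 41605482 to 41620509), which lacks kinase activity, was read at 24.6 and 21.87 CPM in growth medium, 49.0 and 49.0 in DM1, 16.8 and 16.3 in DM2 and 26.7 and 31.1 in DM3 at day 2, and at 62.2 and 59.5 CPM in DM1, 11.3 and 10.3 in DM2 and 10.2 and 10.9 in DM3 at day 7. The 4 DM1 libraries lay above all others, 2.11-fold over day 0 at day 2 and 2.62-fold at day 7 (adjusted p = 8.73e-06 and 1.75e-07). At day 7 DM3 was 5.76-fold under DM1 (log2 -2.53 ± 0.10, adjusted p = 4.78e-09) and did not pass against DM2 (log2 -0.03 ± 0.10). Ephb2 (ENSMUSG00000028664, chromosome 4, 136647539 to 136835988), a receptor of B ephrins, had 8.55 and 8.76 CPM in growth medium, 14.1 and 12.6 in DM1, 6.13 and 7.02 in DM2 and 4.14 and 3.87 in DM3 at day 2, then 7.66 and 11.7 CPM in DM1, 2.75 and 2.06 in DM2 and 1.99 and 3.16 in DM3 at day 7. DM3 was 3.33-fold under DM1 at day 2 and 3.75-fold at day 7 (adjusted p = 0.000138 and 4.84e-05). DM1 did not pass against day 0 at either day (log2 0.63 ± 0.23 and log2 0.16 ± 0.23). The day 2 difference passed in edgeR with only the groups compared (log2 0.65, adjusted p = 0.00396). It also passed under library totals alone (log2 0.68) and with no filter (log2 0.63). Ephb3 was read at 7.96 and 7.67 CPM in growth medium, 14.9 and 13.6 in DM1, 9.58 and 11.0 in DM2 and 9.64 and 11.0 in DM3 at day 2, and 19.6 and 15.4 CPM in DM1, 7.15 and 7.28 in DM2 and 11.8 and 11.5 in DM3 at day 7, with the highest values in DM1, 2.24-fold over day 0 at day 7 (adjusted p = 1.43e-05). Ephb4, the Efnb2 receptor of blood vessels, moved least of the EphB receptors, from 66.3 and 62.1 CPM at day 0 to 43.1 and 44.2 in DM2 and 48.8 and 49.7 in DM3 at day 7 (log2 -0.56 ± 0.08 and log2 -0.38 ± 0.08).

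Among ephrins, the ligands, the largest ratio of highest to lowest group mean was 5.63. Efnb2 (ENSMUSG00000001300, chromosome 8, 8617434 to 8661242), the most abundant ephrin, was read at 125 and 114 CPM in growth medium, 130.5 and 138 in DM1, 114 and 129.8 in DM2 and 155 and 159 in DM3 at day 2, and at 101 and 101 CPM in DM1, 185 and 182 in DM2 and 172 and 189 in DM3 at day 7. It rose in both cocktail media by day 7, 1.54-fold in DM2 and 1.51-fold in DM3 (adjusted p = 5.8e-05 and 6.5e-05), and DM3 was 1.79-fold over DM1 (adjusted p = 7.59e-06). Efnb1 went the other way in these media, with 12.9 and 13.5 CPM in growth medium, 13.1 and 13.8 in DM1, 8.86 and 8.59 in DM2 and 8.46 and 6.80 in DM3 at day 2, and 9.19 and 10.2 CPM in DM1, 5.38 and 5.80 in DM2 and 9.05 and 7.97 in DM3 at day 7. Its fall in DM2 at day 7 was 2.36-fold (adjusted p = 5.67e-06), and in DM3 it was log2 -0.79 ± 0.13 at day 2 and log2 -0.64 ± 0.13 at day 7. Efnb3 was near the low end, at 1.08 and 1.19 CPM at day 0 and 0.301 and 0.35 in DM2 at day 7 (log2 -1.79 ± 0.41, adjusted p = 0.00248). In the other groups it had 0.462 and 0.488 CPM in DM1, 0.681 and 1.11 in DM2 and 0.881 and 0.752 in DM3 at day 2, and 0.641 and 0.376 in DM1 and 0.592 and 0.575 in DM3 at day 7.

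Of the 5 A ephrins, 3 fell in DM2 and 3 in DM3 by day 7 (background 30.9 and 30.1%), and 1 rose in DM2 (24.5%). Efna2 was read at 2.55 and 2.15 CPM in growth medium, 2.35 and 3.15 in DM1, 1.72 and 1.41 in DM2 and 1.54 and 1.79 in DM3 at day 2, and at 4.03 and 3.30 CPM in DM1, 0.64 and 0.661 in DM2 and 1.52 and 1.68 in DM3 at day 7. Both DM2 libraries of day 7 were the lowest, 3.59-fold under day 0 (adjusted p = 7.59e-05), and DM1 was above DM3 at that day (log2 -1.19 ± 0.25). Efna5 (ENSMUSG00000048915, chromosome 17, 62604184 to 62881317), a repulsive cue for axons, showed the opposite: 3.66 and 3.75 CPM in growth medium, 3.36 and 3.19 in DM1, 2.28 and 3.09 in DM2 and 3.48 and 3.54 in DM3 at day 2, then 1.496 and 1.25 CPM in DM1, 5.72 and 5.06 in DM2 and 0.972 and 1.03 in DM3 at day 7. DM2 had the highest day 7 values, and DM3 was 5.37-fold lower than DM2 (log2 -2.43 ± 0.22, adjusted p = 1.48e-06) and 3.69-fold under day 0 (adjusted p = 9.16e-06). Efna4 held 9.18 and 8.07 CPM in growth medium, 8.14 and 7.88 in DM1, 7.93 and 7.60 in DM2 and 9.03 and 8.95 in DM3 at day 2, and 8.02 and 6.22 CPM in DM1, 3.58 and 3.66 in DM2 and 4.48 and 4.68 in DM3 at day 7, 2.38-fold down in DM2 and 1.88-fold in DM3 (adjusted p = 1.2e-05 and 0.000133). Efna1, a ligand of Epha2, had 14.3 and 13.2 CPM in growth medium, 11.7 and 11.0 in DM1, 14.6 and 11.6 in DM2 and 11.9 and 14.7 in DM3 at day 2, and 14.6 and 17.1 CPM in DM1, 6.25 and 6.85 in DM2 and 11.1 and 10.3 in DM3 at day 7, where DM2 was 2.10-fold under day 0 (adjusted p = 5.56e-05). Efna3 was highest in DM3 at day 2 (9.17 ± 0.109 CPM, log2 1.09 ± 0.19 over day 0, 1.11 without replicate 2) against 4.30 ± 0.487 CPM at day 0.

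**Figure D5:**
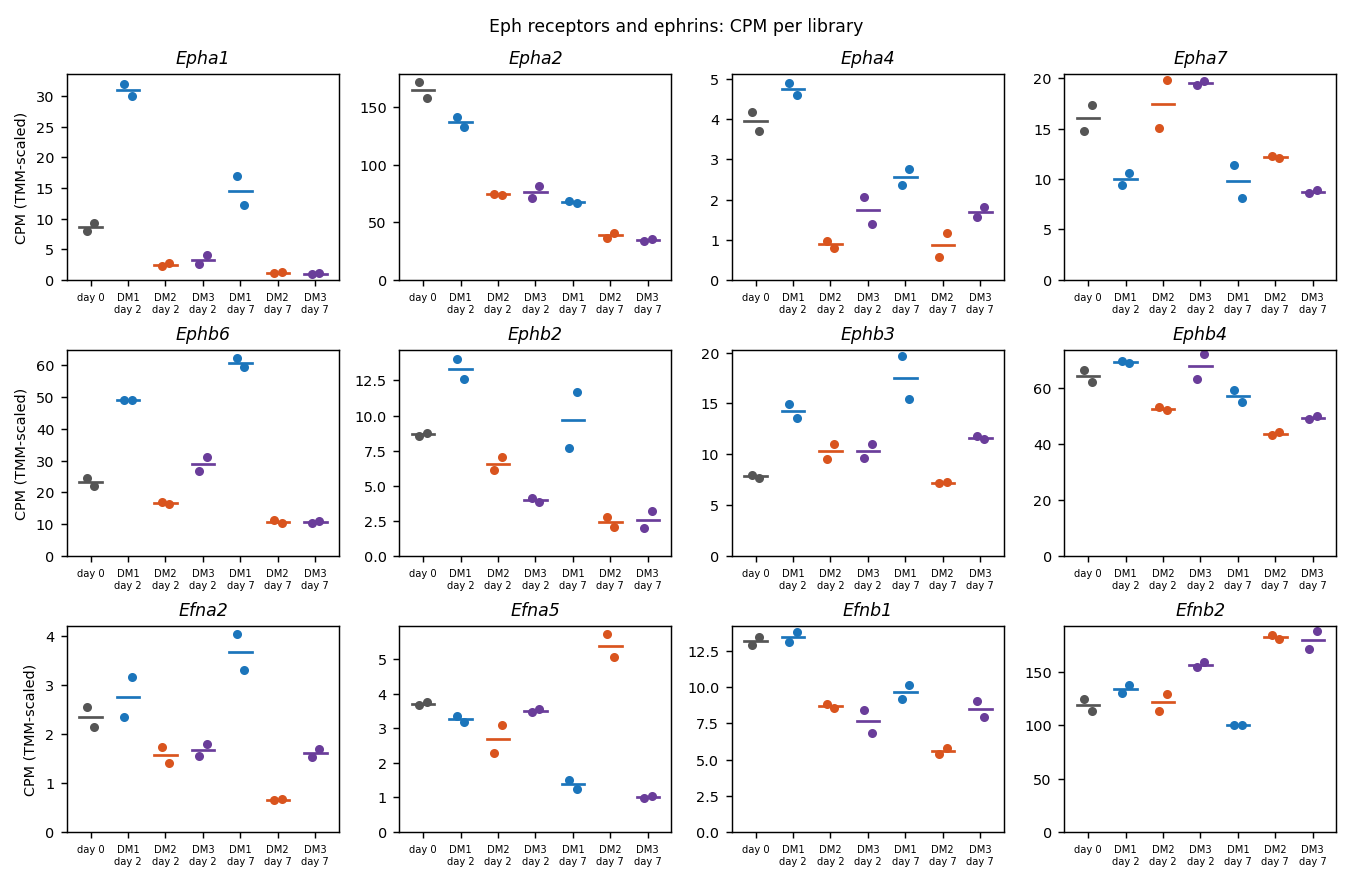
CPM (linear, from 0) of 8 Eph receptors and 4 ephrins in each library (points) with group means (bars). Epha1 and Ephb6 are highest in the 4 DM1 libraries, Epha2 goes from 172 and 158 at day 0 to 33.9 and 35.2 in DM3 at day 7, and Efna5 is highest in DM2 at day 7 at 5.72 and 5.06.

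Partners of these receptors inside the cell and related guidance genes were read from lists of general knowledge, beside shares over all genes of 27.7, 24.5 and 28.9% higher and 25.8, 30.9 and 30.1% lower at day 7 in DM1, DM2 and DM3. Of the semaphorin and plexin partners, 13 of 45 rose and 16 fell in DM1 by day 7, 10 of 45 rose and 15 fell in DM2 and 13 of 45 rose and 18 fell in DM3, with median log2 fold changes of -0.05, 0.02 and -0.11 (all genes tested: 0.06, -0.03 and 0.03). The collapsin response mediator Dpysl3 fell in DM3 (log2 -3.44 ± 0.11), as did the adhesion molecule L1cam (log2 -4.66 ± 0.16). The GTPase Rras rose in DM1 (log2 1.21 ± 0.12) and DM3 (log2 1.30 ± 0.12), and the plexin-binding GTPase Rnd1 fell in DM1 (log2 -1.74 ± 0.12). In DM2 the actin-oxidizing Mical2 fell (log2 -2.24 ± 0.10) and Rnd3 rose (log2 1.51 ± 0.13). Of the Eph and ephrin partners, 12 of 48 rose and 9 fell in DM1, 7 of 48 rose and 27 fell in DM2 and 14 of 48 rose and 20 fell in DM3 (medians -0.05, -0.50 and -0.21). The Eph exchange factor Ngef fell in DM2 (log2 -3.87 ± 0.16) and DM3 (log2 -2.72 ± 0.15), and the protease Adam12 rose in DM1 (log2 2.57 ± 0.19). Adam12 was not among the 4 called genes of this list with the largest rise in DM2 or DM3. For netrin, Slit, Rgm and VEGF genes, 10 of 25 rose and 5 fell in DM1, 10 of 25 rose and 10 fell in DM2 and 9 of 25 rose and 9 fell in DM3 (medians 0.22, 0.10 and -0.11). Hemojuvelin (Hfe2), the muscle-expressed Rgm relative, rose in all 3 media, to log2 7.08 ± 0.15 in DM3, and Rgma rose in DM1 (log2 3.10 ± 0.10) and DM3 (log2 3.32 ± 0.10), while the netrin receptor Unc5b fell there (log2 -1.20 ± 0.10 and log2 -1.64 ± 0.10).

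Over the 13 comparisons of groups and the 2 tests of change with day, 422 of 675 member results were called, and 303 of those 422 calls were kept under every alternative setting run, each library left out included. Apart from the DM3 to DM1 fold of Sema3g at day 7, each member change called higher or lower by name above was kept under all of them and moved by no more than 1.5 times. That statement does not cover Epha3 and Plxnb3, which stayed below 1 CPM.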

How the data were processed

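Per the submitters' processing notes, STAR 2.5.1b, RSEM 1.2.31 and the GRCm38.p5 build were used. The authors deposited expected counts, the estimated read counts that RSEM gives per gene. They were rounded to whole numbers for testing. The members and gene lists were chosen with earlier results of these data known. Genes were filtered with filterByExpr by group, and 15973 of 49671 stayed. The 7 groups (2 libraries each) were fitted in one model with edgeR 4.0.16 (TMM scaling, robust quasi-likelihood F-test, R 4.3.3, limma 3.58.1), with Benjamini-Hochberg adjustment over all genes tested. Groups in differentiation medium were compared with day 0, the days with each other within a medium, and DM3 with DM1 and DM2 on each day, along with the change of these last differences between days. SE was taken as |log2 fold change| over the root of the F statistic.

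Given in every library were, in each role class, up to 4 members called over the 7 groups that reached 1 CPM, by ratio of highest to lowest group mean. In each comparison up to 4 called members higher and 4 lower, the 5 of highest level per kb, and in each pathway list up to 4 genes per direction at day 7, could be named too; other members were named to account for them all. The test was checked on simulated counts. Alternatives were other scalings, no TMM, the DESeq2 1.42.0 test, no filter, only the groups compared, a replicate block, and leaving out libraries. Promoter windows came from RefSeq (GRCm38.p6), and gene coordinates from the annotation of GRCm38.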

Additional observations from a re-analysis of the deposited data

Results flagged for a closer look

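The difference between DM3 and each of the other media changed between day 2 and day 7 in a number of members, by edgeR's test of the interaction with Benjamini-Hochberg adjustment over all genes tested. Given here are, for each medium and direction, the 4 called members with the largest change among those that reached 1 CPM, 13 members in all. Further called members had changes larger than the smallest of these, since the 4 were taken in each direction. Values are on the log2 scale, the day 7 difference minus the day 2 difference. Against DM1 the change was 3.87 for Sema7a, 3.26 for Sema3g, 2.69 for Plxna4 and 1.19 for Sema3d, so DM3 gained on DM1 in these. It was -2.96 for Sema4g, -2.45 for Nrp2, -2.05 for Sema3c and -1.77 for Ephb6, so DM3 lost ground in these. Against DM2 the change was 2.36 for Sema3g, 1.65 for Sema6a, 1.59 for Sema3f and 1.45 for Sema3d, and -3.03 for Sema3c, -2.81 for Efna5, -2.63 for Sema5a and -2.09 for Plxna3.

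Sema3g was below 1 CPM in every day 2 library. Against DM1 the call was lost without DM1 replicate 2 of day 2 (log2 2.78, adjusted p = 0.0568 in edgeR) and the value was 3.89 without DM1 replicate 1 of day 7. Against DM2 it was lost without DM2 replicate 1 of day 2 (log2 1.74, adjusted p = 0.0881 in edgeR). The other 14 values were kept under all alternatives run. Among them, that of Plxna4 rests on 0.176 and 0.107 CPM in DM3 at day 2.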

How the results depend on the processing

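No member call reversed direction under any alternative run. Of 422 calls, 8 were lost with DESeq2 size factors, 28 with the DESeq2 test, 18 with library totals, 22 with no filter, and 69 when the 3 low-pseudogene libraries were left out. Of 375 pairwise calls 39 were lost with only the groups compared, which leaves fewer samples for the spread. Alternatives also added calls. For DM1 at day 2 against day 0, 28 members were called with only the groups compared (23 in the full model). For DM3 against DM1 at day 7, 35 were called under library totals (30 with TMM). The count of members called moved by over 1.5 times in 4 cases. Without the low-pseudogene libraries it was 15 for DM1 at day 2 against day 0 (23 with them) and 15 for the change with day of the DM3 to DM1 difference (24 with them). It was 8 for DM3 against DM2 at day 2 with only those groups fitted (18 in the full model), and 15 for day 7 against day 2 in DM1 without DM1 replicate 1 of day 2 (25 with it). Leaving out each library in turn gave 15 to 19 for day 7 against day 2 in DM1. The cause was not tested. A lone library left in a group is assumed to vary like the other groups.

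Groups share replicate numbers, but same-numbered libraries did not deviate alike throughout. Of 21 pairs of groups, 2 had a correlation of same-numbered deviations over 0.1 (range -0.629 to 0.518). The strongest were among day 0, DM1 at day 2 and DM3 at day 2. Day 0 gave 0.518 with DM1 and -0.629 with DM3, and DM1 gave -0.432 with DM3. The library of low pseudogene share was replicate 1 at day 0 and in DM1, and replicate 2 in DM3. Deviations in these groups were thus related, and the cause was not tested. With the replicate number as a block, 44 members were called over the 7 groups (45 without it), 22 in DM1, 30 in DM2 and 29 in DM3 at day 2, and 32, 36 and 31 at day 7, and 10 of the 422 calls were lost. Such a block takes up the same shift in every group, so it cannot take up deviations of opposite sign. With 2 libraries per group, small changes of members near 1 CPM may be missed at this depth.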
